A study of Mus musculus with 7 samples.

Results

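The 5 genes described here encode the glucose transporters GLUT1 (Slc2a1), GLUT3 (Slc2a3) and GLUT4 (Slc2a4) and the lactate transporters MCT1 (Slc16a1) and MCT4 (Slc16a3). They were taken by symbol from 29517 gene identifiers in a count table of mouse inguinal white adipose tissue, the subcutaneous fat pad of the groin, and all 5 were found and passed the filter on low counts. They were selected on their role and on their measured levels in knockout and wild-type fat, so that comparison is given for them as a description, with no test. Messenger RNA was sequenced in 3 libraries of C57BL/6 mice labelled TM4SF5-/- (KO) and 4 libraries of wild-type C57BL/6 mice (WT), all untreated and on standard chow at 22 °C. The design text names 3 biological replicates per condition, while 4 WT and 3 KO libraries were deposited, and none was set aside. Sex, age and litter are not in the labels, which also do not say which part of Tm4sf5 was deleted or in which cells.

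Glucose enters cells down its gradient through the facilitative carriers of the Slc2a family. GLUT4 is the carrier of fat and muscle that insulin moves from internal vesicles to the cell surface, whereas GLUT1 sits at the surface of most cells and supplies basal uptake. GLUT3 has a high affinity for glucose and is abundant in neurons and white blood cells. The monocarboxylate carriers of the Slc16a family move lactate, pyruvate and ketone bodies together with a proton. MCT1 works in both directions in many tissues, and MCT4 is the carrier through which strongly glycolytic cells, such as fast muscle fibres and activated macrophages, release lactate.

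Library totals lay between 49775077 and 60241436 counts. Tm4sf5 itself was barely detected, with 7, 6 and 17 counts in KO 1 to KO 3 and 33, 45, 47 and 20 counts in WT 1 to WT 4, so every KO count lay below every WT count. Scaled to depth the groups met, with 0.353 CPM in KO 3 and 0.322 CPM in WT 4. Summed white adipocyte markers (7 of 7 measured) ran from 14737 to 22261 CPM in KO and from 7252 to 10423 CPM in WT, where CPM is counts per 1000000 counts of a library, with library sizes adjusted by TMM (trimmed mean of M values). Macrophage markers (8 of 8 measured) summed to 449 to 694 CPM in KO and 1317 to 1978 CPM in WT. Skeletal muscle markers (7 of 7 measured) summed to 14.6 to 132 CPM in KO and to 16.5, 506, 3.56 and 1122 CPM in WT 1 to WT 4. No gene of the marker lists measured was at 0 in all 7 libraries. In bulk tissue, fewer cells of a type and less RNA per cell cannot be told apart.

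GLUT4 was by far the most abundant of the 5 messages per length of transcript. Divided by the length of its merged exons (GENCODE M21), Slc2a4 reached 108 ± 16.1 CPM per kb in KO (SD, n = 3) and 83.6 ± 27.6 CPM per kb in WT (SD, n = 4). Slc16a1 followed with 22.9 ± 10.8 in KO and 13.7 ± 0.499 in WT, and Slc2a1 with 4.85 ± 0.252 in KO and 6.79 ± 1.11 in WT, on the same scale. Slc2a3 had 1.80 ± 0.487 CPM per kb in KO and 2.31 ± 0.598 in WT, and Slc16a3 had 0.222 ± 0.0498 in KO and 0.499 ± 0.194 in WT. This order was the same in each of the 7 libraries, and no neighbours in it overlapped in either group.

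Slc2a4, the insulin-responsive glucose transporter, spanned 1.89-fold among WT libraries and 1.33-fold among KO libraries, and the groups overlapped. It had 404, 312 and 414 CPM in KO 1 to KO 3, against 218, 372, 375 and 198 CPM in WT 1 to WT 4. The WT libraries fell into a high pair, WT 2 and WT 3, above KO 2, and a low pair, WT 1 and WT 4, below every KO library. The means were 377 ± 56.0 CPM in KO (SD, n = 3) and 291 ± 95.8 CPM in WT (SD, n = 4), with a log2 fold change of KO over WT of 0.37 (SE 0.27, edgeR). The value was 0.23 without WT 4 and 0.05 with libraries scaled by total counts alone. Slc2a4 (Entrez 20528), like the other 4 a protein-coding gene, lies on the minus strand of chromosome 11 of mm10, from 69942286 to 69948216.

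Slc2a1, the basal glucose transporter, was lower in every KO library than in any WT library. It had 16.5, 16.4 and 18.0 CPM in KO 1 to KO 3, against 18.7, 28.0, 25.0 and 23.5 CPM in WT 1 to WT 4. The KO libraries lay close together, and the gap between KO 3 and the lowest WT library, WT 1, was small. The means were 17.0 ± 0.883 CPM in KO (SD, n = 3) and 23.8 ± 3.89 CPM in WT (SD, n = 4). Their log2 fold change was -0.49 (SE 0.16, edgeR). With total counts alone the value was -0.81. Slc2a1 (Entrez 20525) lies on the plus strand of chromosome 4, from 119108745 to 119137330. Of the lncRNA genes that overlap it, Gm52706 and Gm12867, neither passed the filter on low counts.

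Slc2a3, the high-affinity transporter, overlapped between the groups. It had 9.46, 13.0 and 16.5 CPM in KO 1 to KO 3, against 11.0, 18.8, 16.0 and 21.1 CPM in WT 1 to WT 4. KO 3 lay above WT 1 and WT 3, and WT 1 lay below KO 2. The log2 fold change was -0.36 (SE 0.27, edgeR), and it was -0.18 without KO 1, -0.23 without WT 4 and -0.56 without KO 3. It was -0.06 when both WT 2 and WT 4, the highest WT libraries for this gene, were left out. Slc2a3 (Entrez 20527) lies on the minus strand of chromosome 6, from 122727809 to 122802363. A pseudogene, Gm4482, lies within that span with 11.5 ± 1.90 CPM in KO and 6.51 ± 0.305 CPM in WT (SD, n = 3 and 4), so reads may have been divided between them.

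Slc16a1, which encodes MCT1, was almost constant among WT libraries and scattered among KO libraries. It had 90.0, 60.3 and 154 CPM in KO 1 to KO 3, against 59.7, 57.8, 61.9 and 62.7 CPM in WT 1 to WT 4. KO 1 and KO 3 lay above all WT libraries and KO 2 among them. The coefficient of variation was 47.1% in KO and 3.65% in WT, and the whole WT range spanned 1.08-fold. The log2 fold change was 0.74 (SE 0.28, edgeR), which became 0.34 without KO 3 and 0.45 with total counts alone. Slc16a1 (Entrez 20501) lies on the plus strand of chromosome 3, from 104638664 to 104658462.

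Slc16a3, which encodes MCT4, was scarce and was lower in every KO library than in any WT library. It had 36, 55 and 69 counts in KO 1 to KO 3, against 150, 175, 98 and 249 counts in WT 1 to WT 4. That is 0.906, 1.21 and 1.43 CPM in KO, against 2.44, 2.64, 1.52 and 4.01 CPM in WT. KO 3 and WT 3 were nearly equal, and WT 4 stood highest. The log2 fold change was -1.16 (SE 0.38, edgeR), and -0.74 without WT 2 and WT 4. These libraries had the most skeletal muscle marker reads, but also the highest Slc16a3 in WT. Leaving them out therefore lowers the WT mean whatever their muscle content, whose part in the level was not tested. Slc16a3 (Entrez 80879) lies on the plus strand of chromosome 11, from 120948484 to 120959000. Its span overlaps Csnk1d, a casein kinase gene at 118 ± 6.06 CPM in KO and 112 ± 10.4 CPM in WT (SD, n = 3 and 4), and how reads from the shared stretch were assigned is not stated.

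**Figure D1:**
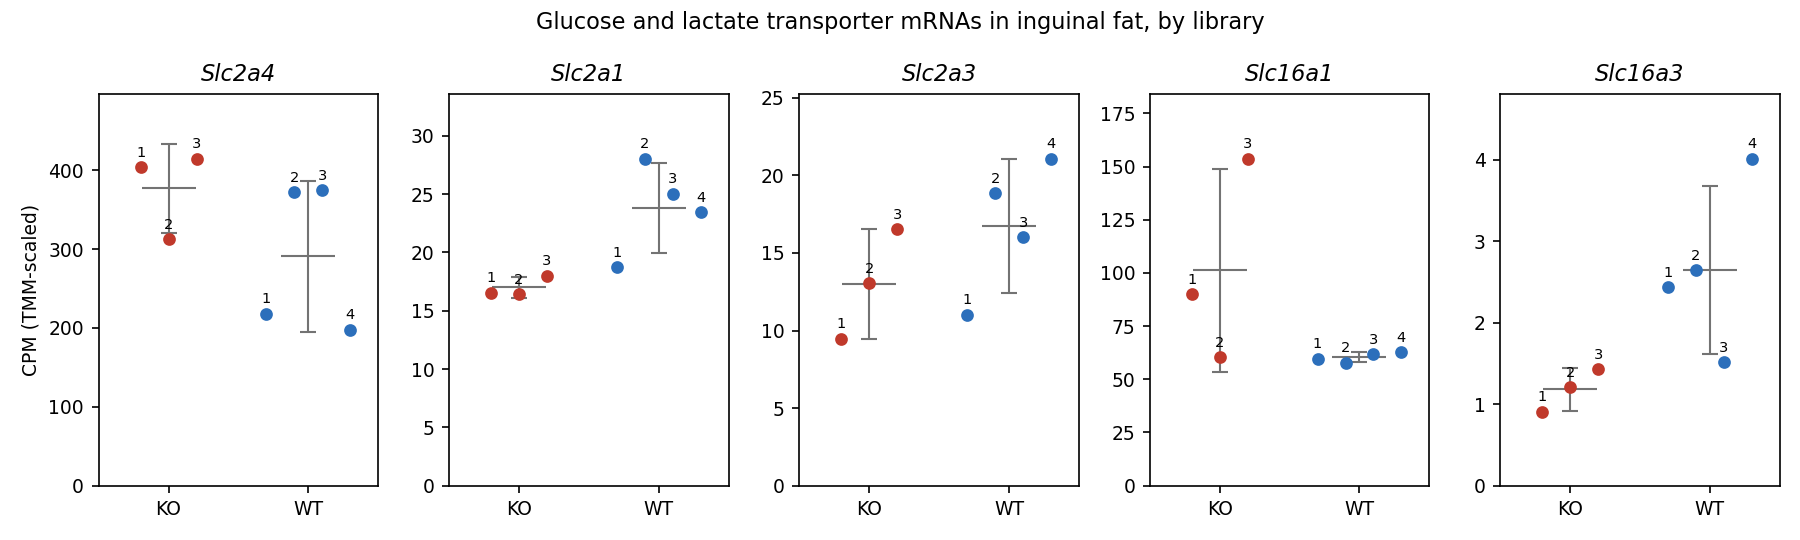
Each panel plots 1 transporter's level in CPM (linear axis from 0) in the 3 KO and 4 WT libraries. Points are libraries with their replicate number, long bars are means and whiskers are SD. The KO points of Slc2a1 and Slc16a3 lie below all WT points, WT points of Slc2a4 split into a high and a low pair, and WT points of Slc16a1 lie between 57.8 and 62.7 CPM.

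For 2 of the 5 genes the KO and WT libraries did not overlap, against 20.3% of the 19185 genes tested. Both had KO entirely below WT, as 8.92% of all genes did, while 11.4% had KO entirely above WT. Nothing is read from the count of 2 because this comparison guided the choice of genes. By log2 fold change, 5.33% of all genes lay at or below Slc16a3, 20.8% at or below Slc2a1 and 26.4% at or below Slc2a3. The corresponding shares were 77.8% for Slc2a4 and 91.1% for Slc16a1. None of the 5 changed direction under any library scaling, filter, tool or left-out library tried. With total counts the median over all genes tested was -0.35, and with TMM it was -0.04. Relative to that median Slc2a4 was at 0.40 with total counts and 0.41 with TMM, and Slc2a1 was at -0.45 with either.

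The promoter sequences of the lower pair, Slc2a1 and Slc16a3, are shown with that of Slc16a1, whose level differed in the other direction. They cover the 250 bases before an annotated transcription start (RefSeq, GRCm38.p6). The table held 3 of the 5 genes. Slc2a4 and Slc2a3 had no entry. Capitals mark ACGTG on either strand, the core letters of the element bound by hypoxia-inducible factors (HIF).
Slc2a1 (chr4:119108495-119108744, + strand): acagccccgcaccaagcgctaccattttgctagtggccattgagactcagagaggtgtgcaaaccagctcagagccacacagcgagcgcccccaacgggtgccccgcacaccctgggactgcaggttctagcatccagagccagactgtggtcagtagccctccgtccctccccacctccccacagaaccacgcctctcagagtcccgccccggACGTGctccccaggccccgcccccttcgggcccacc
Slc16a3 (chr11:120948817-120949066, + strand): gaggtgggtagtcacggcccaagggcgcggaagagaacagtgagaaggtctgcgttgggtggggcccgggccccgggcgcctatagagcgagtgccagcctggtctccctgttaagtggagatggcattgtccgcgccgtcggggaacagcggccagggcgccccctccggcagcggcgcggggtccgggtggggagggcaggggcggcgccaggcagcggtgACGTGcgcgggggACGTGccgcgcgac
Slc16a1 (chr3:104638414-104638663, + strand): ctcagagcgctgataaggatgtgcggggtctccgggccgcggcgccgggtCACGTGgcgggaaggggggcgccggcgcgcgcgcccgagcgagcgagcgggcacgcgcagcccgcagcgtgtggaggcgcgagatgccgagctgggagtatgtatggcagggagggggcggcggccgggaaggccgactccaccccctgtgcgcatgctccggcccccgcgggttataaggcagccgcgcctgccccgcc

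ACGTG occurred 1 time in the Slc2a1 window, 36 bases before the start, and 2 times in the Slc16a3 window, 27 and 14 bases before it. The Slc16a1 window held both overlapping orientations within a single CACGTG, 200 bases before its start. Of 32851 promoter windows of the same length, 16.6% held ACGTG and 6.02% held CACGTG. These windows were rich in G and C, at 66.4% for Slc2a1, 73.6% for Slc16a3 and 76.4% for Slc16a1, against a median of 52.4% over all windows. A match is a description of letters, not of binding, and the part of HIF in these levels was not tested. The start used for Slc16a3 lies inside the gene's annotated span.

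Within each library, GLUT4 message stood in a higher proportion to GLUT1 and MCT4 message in KO than in WT. These ratios of read counts do not depend on how libraries are scaled. The pairs were chosen with the levels in both groups known, so their separation is a description, with no test. There were 24.4, 19.0 and 23.0 Slc2a4 reads per Slc2a1 read in KO 1 to KO 3, against 11.7, 13.3, 15.0 and 8.43 in WT 1 to WT 4. Every KO library lay above every WT library. On the log2 scale the mean ratio was 4.46 ± 0.189 in KO (SD, n = 3) and 3.56 ± 0.357 in WT (SD, n = 4), a difference of 0.90, or 1.86-fold. Leaving out each library in turn gave differences from 0.73 to 1.01.

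Slc2a4 against Slc16a3 differed more but separated by less. The count ratio was 446, 258 and 289 in KO 1 to KO 3, against 89.4, 141, 247 and 49.3 in WT 1 to WT 4. WT 3 came close to KO 2, and the other WT libraries lay far below. The mean log2 ratio was 8.33 ± 0.416 in KO and 6.80 ± 0.986 in WT (SD, n = 3 and 4), a difference of 1.53, which was 1.11 without WT 2 and WT 4. Slc2a4 against Slc2a3 differed by 0.78, and its lowest KO ratio, 23.9, was just above its highest WT ratio, 23.4. That difference was 0.46 without WT 2 and WT 4. The other glucose transporters kept their proportion to each other, with a log2 ratio of Slc2a1 to Slc2a3 of 0.42 ± 0.348 in KO and 0.53 ± 0.264 in WT, and overlapping groups.

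Seen as a share of the summed CPM of the 3 glucose transporters, GLUT4 took 94.0%, 91.4% and 92.3% in KO 1 to KO 3 and 88.0%, 88.8%, 90.1% and 81.6% in WT 1 to WT 4. GLUT1 took 3.85%, 4.81% and 4.01% in KO, against 7.55%, 6.69%, 6.02% and 9.68% in WT. For the lactate carriers the log2 ratio of Slc16a1 to Slc16a3 was 6.34 ± 0.609 in KO and 4.59 ± 0.574 in WT (SD, n = 3 and 4), a 3.35-fold difference with groups that did not overlap. The difference was 1.74 on the log2 scale, and 1.36 without WT 2 and WT 4. MCT1 made up 98.0% to 99.1% of the summed CPM of both carriers in KO and 94.0% to 97.6% in WT.

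**Figure D2:**
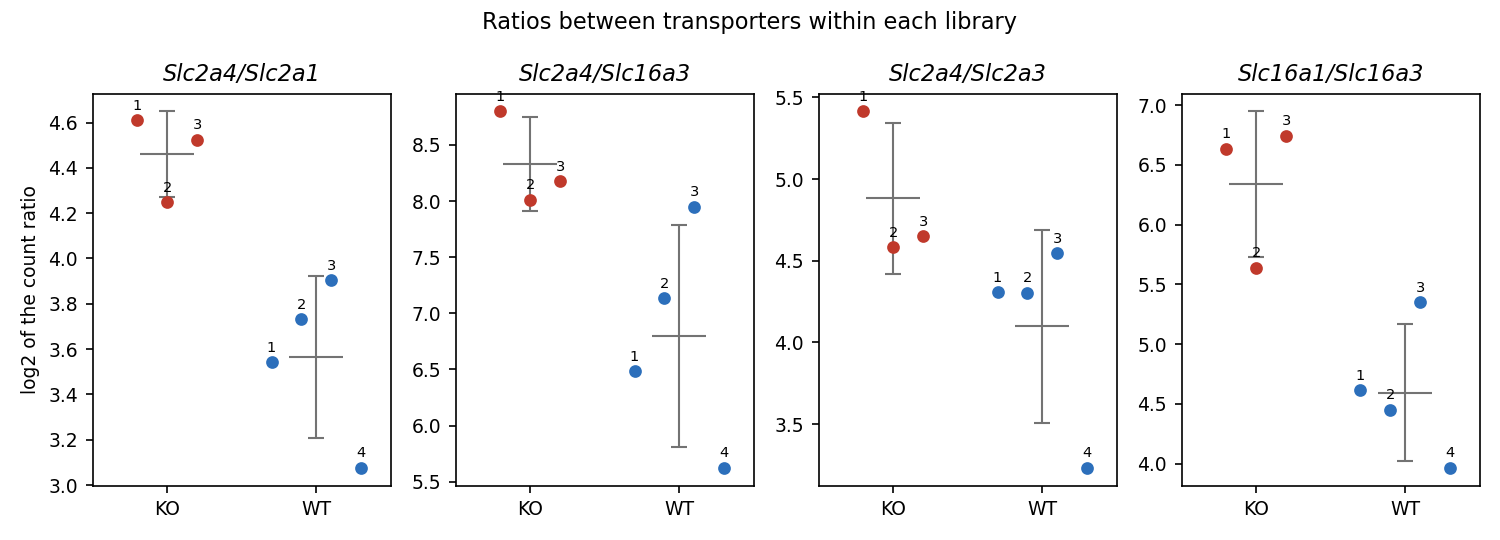
Each panel plots the log2 ratio of read counts of a pair of transporters (vertical axes differ between panels and do not start at 0) in the 3 KO and 4 WT libraries. Points are libraries with their replicate number, long bars are means and whiskers are SD. All KO points lie above all WT points in each panel, by the widest margin for Slc16a1/Slc16a3 and Slc2a4/Slc2a1 and narrowly for the others.

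Slc2a3 ranked the libraries exactly as lymphocyte and lymph node markers did. The 7 markers of that list (7 of 7 measured, among them Cd3e and Ccl21a) summed to 320, 496 and 887 CPM in KO 1 to KO 3, against 417, 1078, 741 and 1195 CPM in WT 1 to WT 4. Sorted from low to high, the 7 libraries stood in the same order for this sum and for Slc2a3. Among the 65 pairings of a transporter with a marker list this was the only identical order, and it was noticed after the values were seen. Per 1000 CPM of those markers Slc2a3 had 18.6 to 29.6 CPM in KO and 17.5 to 26.4 CPM in WT, so the groups overlapped. None of the 7 markers had an unadjusted edgeR p under 0.05, and the median log2 fold change of the list was -0.52.

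Slc16a3 and the macrophage marker sum were both lower in every KO library than in any WT library. Within WT they did not rank alike. The sum was 1978, 1330, 1616 and 1317 CPM in WT 1 to WT 4. Slc16a3 was highest in WT 4, at 4.01 CPM, and lowest in WT 3, at 1.52 CPM. All 8 macrophage markers had an unadjusted edgeR p under 0.05 and a lower level in KO, a direction with that p in 9.51% of all genes tested, and 0 passed the adjusted threshold. The list had a median log2 fold change of -1.69. Per 1000 CPM of macrophage markers, Slc16a3 had 2.02, 2.21 and 2.06 CPM in KO 1 to KO 3, against 1.23, 1.99, 0.939 and 3.05 CPM in WT 1 to WT 4. On that scale the KO libraries lay inside the WT range. The part of macrophage content in the Slc16a3 level was not tested, nor was that of lymph node content in Slc2a3. On the same scale Slc2a3 stood higher in KO, at 21.1 to 23.9 CPM, than in WT, at 5.57 to 16.0 CPM. The divisor was lower in every KO library, and Slc2a3 itself had a lower mean in KO, with overlapping groups. Transporters were set against macrophage markers after the values were seen.

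**Figure D3:**
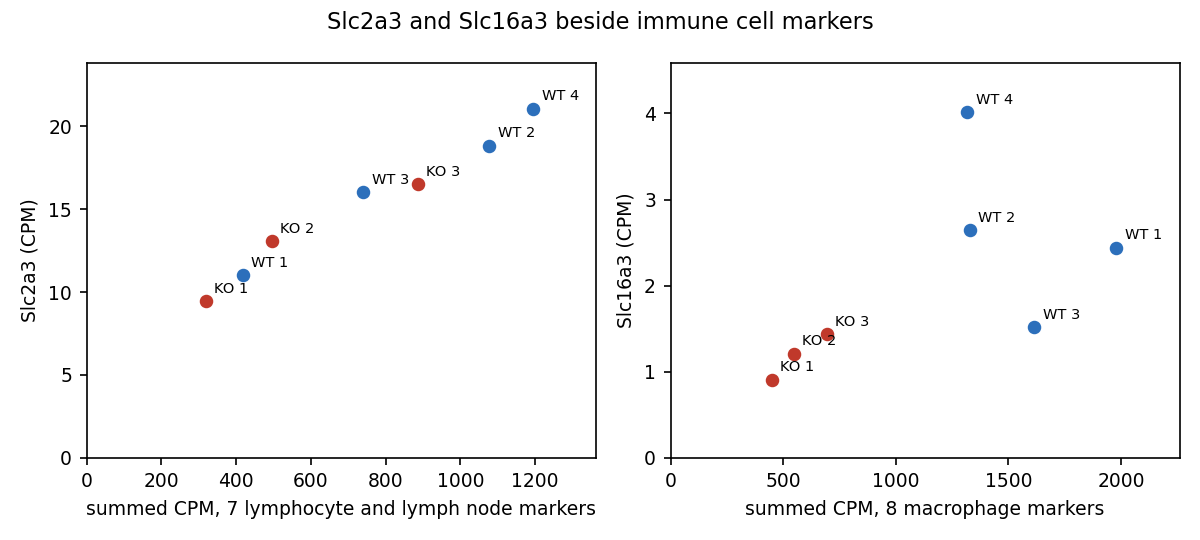
The left panel plots Slc2a3 (CPM) against the summed CPM of 7 lymphocyte and lymph node markers, and the right panel plots Slc16a3 (CPM) against the summed CPM of 8 macrophage markers, with 1 labelled point per library (KO red, WT blue). Slc2a3 climbs with the lymphocyte sum through KO and WT libraries alike, whereas in the right panel the KO libraries sit at low values of both and the WT libraries scatter.

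Relative to adipocyte markers the direction of Slc2a4 and of Slc16a1 turned. Per 1000 CPM of the 7 white adipocyte markers, Slc2a4 had 18.1, 19.1 and 28.1 CPM in KO 1 to KO 3, against 20.9, 51.3, 45.5 and 19.6 CPM in WT 1 to WT 4. On the log2 scale the mean difference of KO and WT was -0.55, with overlapping groups, and it stayed between -0.77 and -0.31 when each library was left out. Fabp4 alone made up 57.0% of that marker sum in KO and 51.5% in WT, and 5 of the 7 markers had an unadjusted edgeR p under 0.05 with a higher level in KO, which 12.3% of all genes did. Slc2a1 had 0.743 to 1.22 CPM per 1000 in KO and 1.79 to 3.86 in WT, and Slc16a3 had 0.0407 to 0.0973 in KO and 0.184 to 0.398 in WT. That neither overlapped was fixed beforehand. Both genes were already lower in every KO library, and the marker sum was higher in every KO library. Slc16a1 overlapped, at 3.69 to 10.4 in KO and 5.73 to 7.97 in WT, with a mean log2 difference of -0.34. Brown adipocyte markers (6 of 6 measured, among them Ucp1) summed to 2616, 749 and 1713 CPM in KO 1 to KO 3 and to 586, 258, 276 and 1060 CPM in WT 1 to WT 4. Among KO libraries the lowest sum and the lowest Slc16a1 were both in KO 2, whereas the highest sum was in KO 1 and the highest Slc16a1 in KO 3. In WT the sum ran from 258 to 1060 CPM while Slc16a1 stayed between 57.8 and 62.7 CPM. The part of brown adipocyte content was not tested.

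**Figure D4:**
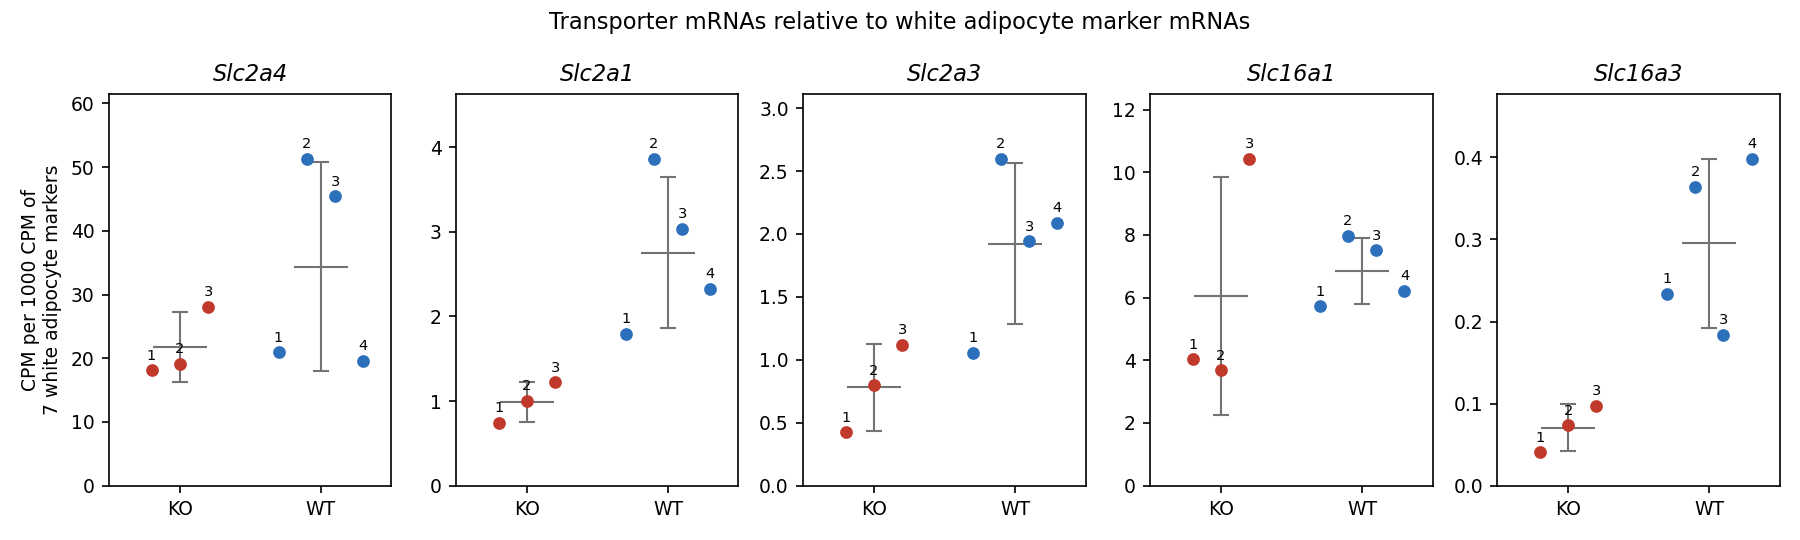
Each panel plots 1 transporter in CPM per 1000 CPM of 7 summed white adipocyte markers (linear axis from 0) in the 3 KO and 4 WT libraries. Points are libraries with their replicate number, long bars are means and whiskers are SD. KO points of Slc2a1 and Slc16a3 lie below all WT points, as they already did in CPM, and those of Slc2a4 lie within or just below the WT range of 19.6 to 51.3.

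The profiles most like each transporter were sought among tested genes with a mean of at least 10 CPM, by the root-mean-square difference of log2 CPM, centred on each gene's mean, over the 7 libraries. For Slc2a4 these were Tmem135 (0.12), a peroxisomal membrane protein, Mlxipl (0.12), which encodes the glucose-sensing transcription factor ChREBP, and Gpt (0.13), which encodes an alanine aminotransferase. Mlxipl had 282, 262 and 284 CPM in KO 1 to KO 3, against 182, 306, 287 and 165 CPM in WT 1 to WT 4. Its low WT 1 and WT 4 follow from the search, which took the closest of 9791 genes over 7 libraries. Close profiles can arise by chance among so many genes, so nothing is read from the likeness. For Slc2a1 the nearest were Spata5 (0.091), Lnpk (0.095), which shapes the endoplasmic reticulum, and Gng10 (0.096), a G protein subunit. For Slc2a3 they were Grk6 (0.072), a receptor kinase, Pde7a (0.073), a cyclic AMP phosphodiesterase, and Gimap6 (0.078), a GTPase of lymphocytes, and for Slc16a1 the genes Rfxank (0.12), Traf4 (0.14) and Prxl2b (0.16) came nearest. For Slc16a3 they were Aif1 (0.18), a calcium-binding protein of macrophages, Samsn1 (0.18), an adaptor of white blood cells, and Ifi30 (0.22), a lysosomal thiol reductase. The values in brackets are those differences in log2 units.

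Around the 5 transporters, 9 lists of 104 related genes were examined, of which 92 passed the filter on low counts. With edgeR's quasi-likelihood test 0 of the 92 passed an adjusted p of 0.05 over all genes, as did 0 of the 19185 genes tested (0%). At an unadjusted p under 0.05, 17 of the 92 were higher in KO (18.5%, against 12.3% of all genes) and 10 were lower (10.9%, against 9.51% of all genes). DESeq2 gave an adjusted p for 89 of the 92 and called 12 of these higher and 6 lower at a threshold of 0.05, against 7.26% and 5.49% of the genes it adjusted, and limma-voom called 0. In the accounts of each list that follow, p-values are edgeR's, adjusted over all genes, and the background shares are the same. The lists were chosen with earlier results of these data known, so nothing is read from their counts against those shares. With libraries scaled by total counts alone, the 17 higher and 10 lower became 5 and 25.

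Among the other glucose carriers of the Slc2a family, 7 of 9 were tested, 1 was higher and 1 lower at an unadjusted p under 0.05, and their median log2 fold change was 0.00. Slc2a8, an intracellular carrier, had 29.5, 22.0 and 20.2 CPM in KO 1 to KO 3, against 19.3, 12.6, 15.9 and 14.2 CPM in WT 1 to WT 4. Its groups did not overlap, with a log2 fold change of 0.63 (SE 0.20, edgeR adjusted p = 0.139). Slc2a6, a lysosomal carrier of white blood cells, averaged 2.73 CPM in KO and 4.98 CPM in WT (-0.87, SE 0.32, edgeR adjusted p = 0.181). Slc2a9, which carries urate, averaged 5.01 CPM in KO and 7.40 CPM in WT (edgeR adjusted p = 0.355). Of 9 sodium-coupled sugar and monocarboxylate carriers, 3 were not analysed here and 5 had too few counts to be tested, at 0 to 38 counts over the 7 libraries together. Slc5a11 was tested, at 0.153 CPM in KO and 0.173 CPM in WT (edgeR adjusted p = 0.935). Slc5a9, named after its values were seen, had 0 counts in each KO library and 5, 13, 16 and 4 counts in WT 1 to WT 4. Slc5a8, also untested, went the other way, with 7, 4 and 9 counts in KO 1 to KO 3. It had 0, 0, 3 and 0 counts in WT 1 to WT 4.

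All 12 other members of the Slc16a family were tested, with 0 higher and 2 lower at an unadjusted p under 0.05 and a median log2 fold change of -0.08. Slc16a9 had 7.45, 8.87 and 6.40 CPM in KO 1 to KO 3, against 12.6, 14.1, 17.7 and 10.7 CPM in WT 1 to WT 4. The groups did not overlap, with a log2 fold change of -0.86 (SE 0.22, edgeR adjusted p = 0.103). Slc16a14 averaged 0.0574 CPM in KO and 0.693 CPM in WT (edgeR adjusted p = 0.103). Slc16a6, which carries ketone bodies in zebrafish liver, averaged 18.3 CPM in KO and 30.8 CPM in WT, with overlapping groups (edgeR adjusted p = 0.237).

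Among genes that handle lactate and pyruvate most had higher means in KO, with 0 past the adjusted threshold. Of 7 tested, 5 were higher and 1 lower at an unadjusted p under 0.05, and their median log2 fold change was 0.80, against -0.04 for all genes. Mpc1 and Mpc2 encode the carrier that takes pyruvate into mitochondria. Mpc1 had 838, 553 and 651 CPM in KO 1 to KO 3, against 238, 342, 360 and 299 CPM in WT 1 to WT 4 (1.14, SE 0.21, edgeR adjusted p = 0.0956). Mpc2 averaged 364 CPM in KO and 158 CPM in WT (1.21, SE 0.24, edgeR adjusted p = 0.0956). Both had KO entirely above WT.

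Messages for partner proteins of the lactate carriers had mean differences in opposite directions, with neither gene past the adjusted threshold. Protein was not measured. Embigin and basigin are membrane glycoproteins that bring monocarboxylate carriers to the cell surface. Emb, for embigin, had 14.0, 16.5 and 25.3 CPM in KO 1 to KO 3, against 35.3, 37.6, 27.3 and 32.1 CPM in WT 1 to WT 4 (-0.83, SE 0.23, edgeR adjusted p = 0.111). Bsg, for basigin, which escorts MCT1 and MCT4, averaged 390.4 CPM in KO and 245 CPM in WT (0.67, SE 0.18, edgeR adjusted p = 0.111). The groups did not overlap for either gene. Hcar1, the lactate receptor of fat cells, averaged 147 CPM in KO and 80.6 CPM in WT with overlapping groups (edgeR adjusted p = 0.367).

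Hexokinases trap glucose inside the cell after its entry. Of 4 tested, 0 were higher and 1 lower at an unadjusted p under 0.05, with a median log2 fold change of -0.20. Hk3, an isoform of white blood cells, averaged 4.26 CPM in KO and 8.75 CPM in WT (-1.04, SE 0.33, edgeR adjusted p = 0.137). Hk1 averaged 42.0 CPM in KO and 53.1 CPM in WT (edgeR adjusted p = 0.276). Hk2, the isoform of insulin-sensitive tissues, had 243, 162 and 204 CPM in KO 1 to KO 3, against 178, 310.1, 246 and 118 CPM in WT 1 to WT 4 (edgeR adjusted p = 0.917).

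Of the genes that move GLUT4 vesicles, all 20 were tested, with 3 higher and 2 lower at an unadjusted p under 0.05 and a median log2 fold change of 0.11. Trarg1, a membrane protein of GLUT4 vesicles, had 665, 602 and 498 CPM in KO 1 to KO 3, against 380, 199.7, 258 and 271 CPM in WT 1 to WT 4 (1.09, SE 0.23, edgeR adjusted p = 0.0956). Akt2, the insulin-signalling kinase that triggers GLUT4 movement, averaged 491 CPM in KO and 296 CPM in WT (0.73, SE 0.19, edgeR adjusted p = 0.105). Stxbp3, a syntaxin-binding protein of vesicle fusion, averaged 34.7 CPM in KO and 45.5 CPM in WT (-0.39, SE 0.12, edgeR adjusted p = 0.126). The groups did not overlap for these 3 genes.

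Of 14 regulators linked to Slc2a4 transcription or to ChREBP, 2 were higher and 0 lower at an unadjusted p under 0.05, with a median log2 fold change of 0.11. Nr1h3, the liver X receptor alpha, averaged 99.4 CPM in KO and 62.7 CPM in WT (0.66, SE 0.18, edgeR adjusted p = 0.111). Cebpa, an adipocyte transcription factor, averaged 664 CPM in KO and 458 CPM in WT (0.54, SE 0.20, edgeR adjusted p = 0.179). Mef2c averaged 61.1 CPM in KO and 98.3 CPM in WT with overlapping groups (edgeR adjusted p = 0.258).

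Slc2a1 and Slc16a3 are textbook targets of HIF, and other HIF targets and regulators were counted beside them. Of 22 tested, 6 were higher and 2 lower at an unadjusted p under 0.05, with a median log2 fold change of 0.09. Pdk1, which slows pyruvate entry into the citric acid cycle, had 192, 169 and 165 CPM in KO 1 to KO 3, against 104, 118, 125 and 131 CPM in WT 1 to WT 4 (0.55, SE 0.13, edgeR adjusted p = 0.0980). Vegfa, a growth factor for vessels, averaged 407 CPM in KO and 275 CPM in WT (0.57, SE 0.16, edgeR adjusted p = 0.114). Egln1, an oxygen sensor, averaged 137 CPM in KO and 78.6 CPM in WT (0.80, SE 0.23, edgeR adjusted p = 0.12). The groups did not overlap for these 3 genes.

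Of 5 genes that control GLUT1, 0 were higher and 1 lower at an unadjusted p under 0.05, with a median log2 fold change of 0.06. Myc, which activates Slc2a1 in dividing cells, averaged 17.6 CPM in KO and 25.8 CPM in WT (-0.55, SE 0.19, edgeR adjusted p = 0.158). Arrdc4, an arrestin that lowers surface GLUT1, averaged 24.8 CPM in KO and 32.4 CPM in WT (edgeR adjusted p = 0.331). Snx27, which recycles GLUT1 to the surface, averaged 60.6 CPM in KO and 58.2 CPM in WT (edgeR adjusted p = 0.838).

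**Figure D5:**
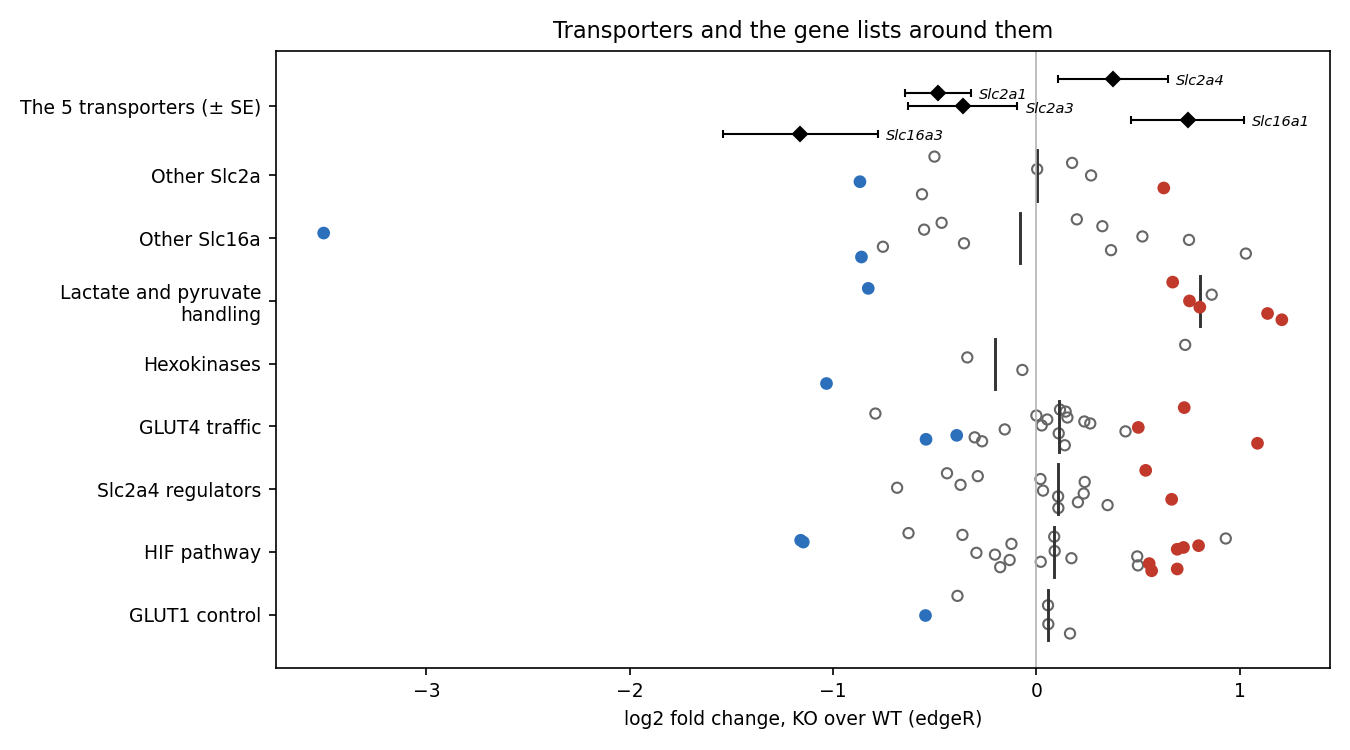
Log2 fold changes of KO over WT (edgeR) are plotted for the 5 transporters (diamonds, whiskers ± SE) and for the genes of 8 lists around them, 1 circle per gene. Filled circles mark an unadjusted p under 0.05 (red higher, blue lower in KO), open circles the rest, and vertical bars the list medians. The bar of the lactate and pyruvate list stands at 0.80, and those of the other lists lie between -0.20 and 0.11.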

How the data were processed

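The authors deposited a table of read counts, not normalized, by Entrez gene for 7 libraries, 3 KO and 4 WT. Per the submitters' processing notes, bcl2fastq 2.20.0, Trimmomatic, HISAT2 2.1.0, StringTie 1.3.4d and DESeq2 were used with mm10. The labels' protocols name Trizol extraction and a stranded mRNA kit. The annotation, counting rule and strand setting are not stated, so overlapping genes and pseudogenes may share reads. Symbols and coordinates were taken from RefSeq GRCm38.p6, the assembly of mm10, for 29444 of 29517 identifiers.

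Genes were kept by filterByExpr (minimum count 10), which left 19185. Libraries were scaled by TMM and KO was compared with WT by the quasi-likelihood F-test of edgeR 4.0.16 in R 4.3.3, with no covariate and Benjamini-Hochberg adjustment at 0.05. Standard errors come from the F statistic. DESeq2 1.42.0 and limma-voom (limma 3.58.1) were alternatives, as were other scalings, filters, left-out libraries and a replicate block. The scripts were tested on simulated data: of 4-fold changes in the KO and WT comparison (19185 genes), edgeR recovered 72%, and of 2-fold changes 12%, with 1 unchanged gene among 85 calls. DESeq2 recovered 92% and 41%, with 48 unchanged genes among 181.

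The genes, lists and alternatives were chosen with earlier results of these data known. Named genes are the 5 transporters, Tm4sf5, up to 3 genes of each list with the smallest edgeR p, and the 3 nearest profiles of each transporter. A gene that this rule names is not reported here. Others are named to show overlap, list content or partners. The design text calls the samples biological replicates without naming animals, so the p-values reflect only the spread among these libraries. Totals ran from 49775077 to 50704542 counts in KO and from 55717495 to 60241436 counts in WT. TMM factors were 0.798, 0.896 and 0.954 in KO 1 to KO 3, against 1.06, 1.16, 1.07 and 1.11 in WT 1 to WT 4. The 10 genes with the most counts took 18.4% to 24.3% of a KO library and 12.3% to 15.3% of a WT library. Depth and scaling thus differed between the groups. Counting error alone is largest for Slc16a3.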

Additional observations from a re-analysis of the deposited data

How the results depend on the processing

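The log2 fold changes of the 5 transporters kept their direction under every alternative run, and moved by more than the spread between replicates only for Slc2a1 with total counts alone (-0.81). Leaving out 1 library at a time gave 0.23 to 0.52 for Slc2a4, -0.58 to -0.40 for Slc2a1, -0.56 to -0.18 for Slc2a3, 0.34 to 1.03 for Slc16a1 and -1.36 to -0.89 for Slc16a3. The ratio of Slc2a1 to Slc2a3 changed sign without KO 3, with a range of -0.30 to 0.035 over left-out libraries, and the other ratios kept theirs. Genes with an adjusted p under 0.05 numbered 0 with edgeR, 1 with total counts alone, 1 with limma-voom and 2158 with DESeq2, and 0 without any 1 library. At an unadjusted p under 0.05, 2363 genes were higher and 1824 lower, which became 694 and 4868 with total counts alone and 1383 and 948 without KO 1. Over left-out libraries these counts ran from 1383 to 2419 and from 948 to 2217. Among the list genes, the 17 higher and 10 lower became 5 and 25 with total counts alone, and ran from 13 to 19 and from 7 to 13 over left-out libraries. DESeq2 called 18 of them. Snx27 changed sign with total counts alone (-0.26), without WT 2 (-0.021 to 0.15 over left-out libraries) and without WT 2 and WT 4 (-0.042), and Slc5a11 without KO 2, without WT 2 (-1.45 to 0.43 over left-out libraries) and without WT 2 and WT 4 (0.26). The cause of these moves was not tested. Dropping WT 2 and WT 4 together was chosen after seeing the data.

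Between KO and WT libraries of the same replicate number, deviations from the group means correlated at 0.22, -0.17 and -0.02 for numbers 1 to 3. The best correlation with a WT library of another number was -0.02, 0.21 and 0.24. So few libraries cannot settle whether the numbers pair them. With the numbers as a replicate block, 0 genes passed the adjusted threshold, and the log2 fold changes were 0.26 for Slc2a4, -0.47 for Slc2a1, -0.24 for Slc2a3, 0.65 for Slc16a1 and -0.88 for Slc16a3. A prior count of 0.5 gave the same 3 nearest profiles for each transporter.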
